A study of Mus musculus with 12 samples.

Results

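The genes described here are 34 listed genes of the basement membrane and of the receptors that hold cells to it and to each other: laminin chains, nidogens, basement membrane collagens, heparan sulfate proteoglycans, integrin subunits, the hyaluronan receptor CD44, cadherins and focal adhesion components. They were picked by symbol from a list that was drawn up with earlier results of these data known. Of the 34, 33 had a row among the 15156 genes of the table, each of the 33 passed the filter on low counts, and Ilk was not analysed here. RNA of mouse embryonic fibroblasts was sequenced in bulk from 3 lines, with 4 libraries each, titled as experiments 1 to 4: 1 line labelled p27-/- (KO) and a pair of p27+/+ lines, WT clone2 and WT clone1. All of the lines carried the human papillomavirus E6 protein used to immortalise them, which acts through degradation of p53, and all were grown for 24 h in DMEM with 10% fetal bovine serum. The knockout is represented by a single line, so the genotype and whatever else sets that line apart cannot be told apart. The labels do not say whether the experiments were separate cultures, so the p-values rest on a spread between these libraries that may be technical. Where both wild-type lines are pooled as 1 group, that spread also includes the difference between the wild-type lines.

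A basement membrane is a thin sheet of matrix on which cells rest. Laminins, trimers of an alpha, a beta and a gamma chain, polymerise on the cell surface, collagen IV forms a second network, and nidogens and the proteoglycans perlecan (Hspg2) and agrin (Agrn) connect the networks. Integrins, each an alpha and a beta subunit, bind these proteins from the cell side and connect through talin, vinculin, paxillin and focal adhesion kinase to actin. Cadherins hold neighbouring cells together, and fibroblasts carry mainly the mesenchymal ones, N-cadherin (Cdh2) and cadherin-11 (Cdh11), rather than E-cadherin. p27, the product of Cdkn1b, inhibits cyclin-dependent kinases in the nucleus and is also known for roles in the cytoplasm in cell migration.

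Col4a1 and Col4a2, which encode the 2 chains of the common collagen IV trimer, lie head to head on chromosome 8 and are transcribed in opposite directions from a shared promoter. Their promoter windows, which run from 250 bases before to 50 bases after each start, are shown because the paired genes did not give the same result below. Both are RefSeq sequences of GRCm38.p6, a build used for these sequences only: Col4a1 at chr8:11312777-11313076 on the minus strand and Col4a2 at chr8:11312555-11312854 on the plus strand. Capitals mark matches, on either strand, to CCAAT (the CCAAT box) and GGGCGG (the GC box).
Col4a1: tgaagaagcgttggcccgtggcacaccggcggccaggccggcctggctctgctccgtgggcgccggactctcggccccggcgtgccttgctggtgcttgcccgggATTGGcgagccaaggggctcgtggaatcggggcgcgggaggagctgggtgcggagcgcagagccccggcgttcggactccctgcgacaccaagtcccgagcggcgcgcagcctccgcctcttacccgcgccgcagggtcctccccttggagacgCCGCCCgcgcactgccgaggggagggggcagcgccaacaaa
Col4a2: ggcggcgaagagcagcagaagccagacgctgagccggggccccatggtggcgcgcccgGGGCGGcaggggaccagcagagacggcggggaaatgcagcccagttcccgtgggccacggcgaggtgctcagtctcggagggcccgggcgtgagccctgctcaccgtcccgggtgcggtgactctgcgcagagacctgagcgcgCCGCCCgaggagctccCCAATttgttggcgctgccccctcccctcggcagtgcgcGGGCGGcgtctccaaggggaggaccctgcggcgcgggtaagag
The 2 starts are 21 bases apart and the windows share 78 bases, so each is in part the reverse complement of the other. The Col4a1 window held 1 match to CCAAT and 1 to GGGCGG, and the Col4a2 window held 1 match to CCAAT and 3 to GGGCGG. Of 32851 such windows in the RefSeq table, 37.4% held CCAAT and 35.7% held GGGCGG on either strand, so such matches are common.

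Libraries held 15.4 to 24.0 M counts in named genes. Levels are given as CPM, counts per 1 M counts in named genes after TMM scaling, and as CPM per kb of transcript where genes are set side by side. Cdkn1b transcript was present in the libraries labelled KO at 83.7 to 118 CPM, against 88.6 to 120.0 CPM in WT clone2 and 86.8 to 101 CPM in WT clone1, and did not pass the test against both wild-type lines (log2 fold change 0.12 ± 0.11 SE, edgeR adjusted p = 0.499). The labels do not say which part of the gene was deleted, so these counts do not check the genotype, and every direction below is that of the line labelled KO. Of 10 fibroblast markers, 9 were in the table, with summed levels of 13954 to 18436 CPM in KO, 16579 to 22099.7 CPM in WT clone2 and 10856 to 16525 CPM in WT clone1. Of the 9, 1 was higher and 1 lower in KO against both wild-type lines, and 7, among them Col1a1, Col1a2 and Thy1, did not pass. The higher one was vimentin (Vim), the intermediate filament of mesenchymal cells, at 4667 to 5959.7 CPM in KO, against 2512 to 3025 CPM in WT clone2 and 2995 to 4279.9 CPM in WT clone1 (0.69 ± 0.13, adjusted p = 0.00274). The lower one was decorin (Dcn), a small matrix proteoglycan, at 0.115 to 0.414 CPM in KO, against 5.25 to 27.3 CPM in WT clone2 and 18.7 to 74.1 CPM in WT clone1 (-6.55 ± 0.87, adjusted p = 0.00022). Summed epithelial markers, of which 4 of 7 were in the table and Krt8 and Krt18 stayed under 1 CPM in every library, were at 5.8 to 12.1 CPM in KO, 0.514 to 1.71 CPM in WT clone2 and 26.7 to 60.6 CPM in WT clone1. In KO and WT clone1 nearly all of the sum came from Krt19. In WT clone2 mean Krt19 was 0.332 CPM and mean E-cadherin (Cdh1) 0.553 CPM. Mean Cdh1 was 0.307 CPM in WT clone1, and no KO library held a Cdh1 count. The endothelial sum (4 of 7 in the table, Pecam1 under 1 CPM throughout) was 0.688 to 2.42 CPM in KO, 0.829 to 1.94 CPM in WT clone2 and 6.37 to 17 CPM in WT clone1. Kdr and Tek were highest in WT clone1, while Vwf had its highest mean in WT clone2. Smooth muscle and pericyte markers (6 of 8 in the table) summed to 2987 to 5568 CPM in KO, 3089 to 6628 CPM in WT clone2 and 3243 to 4476 CPM in WT clone1. The smooth muscle myosin Myh11 alone of the 6 passed against both lines pooled. It was lower in KO, at 0.296 to 0.808 CPM in KO, against 5.54 to 16.8 CPM in WT clone2 and 2.39 to 5.05 CPM in WT clone1 (-3.75 ± 0.67, adjusted p = 0.00176). Leukocyte markers (2 of 6) summed to 2.03 to 2.6 CPM in KO, 2.28 to 3.22 CPM in WT clone2 and 3.23 to 4.31 CPM in WT clone1. The experiment 1 libraries of KO and of WT clone1 stood apart: their mean correlation with the other libraries of their line over 14392 genes was 0.978 and 0.980, against 0.985 to 0.990 for the other 10 libraries.

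Of the 33 members, 17 passed the edgeR quasi-likelihood test of KO against both wild-type lines pooled (Benjamini-Hochberg adjusted p under 0.05 over 14392 genes), 7 of them higher and 10 lower in KO. Over all genes tested 18.8% passed, 8.47% higher and 10.3% lower. The members went both ways, with 21.2% of them higher and 30.3% lower, and their median log2 fold change was -0.06, beside -0.03 over all genes. All of the 10 lower members and 1 higher member, Itga6, differed by at least 2-fold, which makes 11 of 33 members, against 7.91% of all genes. In 13 members the 4 KO libraries lay beyond all 8 wild-type libraries, against 13.9% of all genes. The wild-type lines also differed from each other: 19 of 33 members passed between WT clone2 and WT clone1 (42.6% of all genes), 10 higher and 9 lower in WT clone2 (20.7% and 21.9%), 8 of them by at least 2-fold (13.9% of all genes), and 17 did not overlap between these lines (40.8%).

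**Figure D1:**
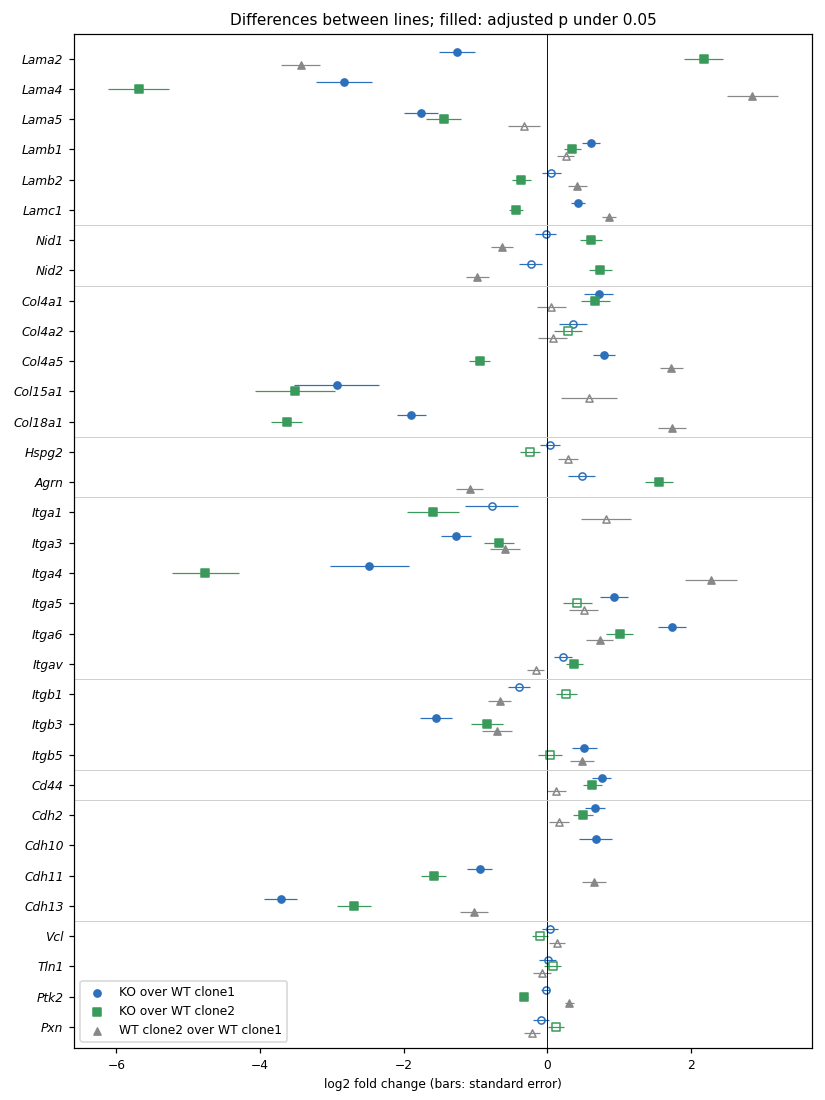
Log2 fold change of each of 33 genes (x axis; bars are standard errors) in the 3 contrasts between lines, 4 libraries per line, with filled symbols for adjusted p under 0.05; the line labelled KO is on top of both KO contrasts. Lama4, Itga4, Col18a1 and Cdh13 lie far to the left in both KO contrasts, Lama2 lies on opposite sides of 0, and the focal adhesion genes at the bottom lie near 0; the contrasts of Cdh10 with WT clone2, which held 3 counts, are not drawn.

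Against single lines, 25 of 33 members passed in KO against WT clone2, where 38.4% of all genes did, 11 higher (19.2%) and 14 lower (19.2%), and 21 did not overlap (38.1%). In KO against WT clone1, 20 passed, where 36.1% of all genes did, 10 higher (16.8%) and 10 lower (19.3%), and 20 did not overlap (33.3%). Since these comparisons share the KO libraries, they are not independent. In 14 members the pooled test and the tests against each line passed in the same direction (14.9% of all genes), 5 higher (6.77%) and 9 lower (8.12%) in KO. Those 5 were Lamb1, Col4a1, Itga6, Cd44 and Cdh2, and those 9 were Lama4, Lama5, Col15a1, Col18a1, Itga3, Itga4, Itgb3, Cdh11 and Cdh13. For Lama2, Lamc1 and Col4a5 the KO line passed in opposite directions against the wild-type lines (4.43% of all genes). Col4a2, Hspg2, Vcl, Tln1 and Pxn passed in none of the 4 comparisons, 5 of 33 members beside 38.7% of all genes. A limma-voom fit with the line as a random block allowed for likeness within a line through 1 correlation for all genes (0.508). In that fit Cdh13 alone kept its pooled call (adjusted p = 0.0412), and the other 16 members ran from 0.0882 for Col18a1 to 0.78 for Itga1. The fit still drew its error from the 12 libraries, so it is not a test with the line as the replicate.

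The alpha chain largely sets which receptors a laminin binds, and it was the alpha chain transcripts that differed most between the lines. Lama4, the alpha chain of laminins of blood vessels, fat and other mesenchymal tissue (GRCm39 chr10:38841141-38998403), had 2.24, 2.66, 8.12 and 5.19 CPM in the KO libraries of experiments 1 to 4, against 183, 213, 312 and 224 CPM in WT clone2 and 17.4, 33.7, 50.9 and 26.2 CPM in WT clone1. The 3 lines did not overlap, with KO lowest and WT clone2 highest. Lama4 was lower in KO than in both wild-type lines (log2 fold change -4.87 ± 0.97 SE, adjusted p = 0.00368), by -5.69 ± 0.43 against WT clone2 and -2.83 ± 0.39 against WT clone1. The step between the wild-type lines, 2.86 ± 0.36 for WT clone2 over WT clone1, was as large as the step between KO and WT clone1. Myh11 stood in the same order over the lines. So did the mean of another smooth muscle marker, calponin (Cnn1), at 110.1 CPM in KO, 291 CPM in WT clone2 and 140.2 CPM in WT clone1. The KO and WT clone1 libraries overlapped by Cnn1. The other markers of that list in the table did not stand in this order. The pericyte and endothelial marker Mcam was at 86.1 to 184 CPM in KO, 14 to 41.9 CPM in WT clone2 and 145 to 237 CPM in WT clone1. Mean Acta2 was 3861 CPM in KO, 4164 CPM in WT clone2 and 3317 CPM in WT clone1. In the same lines, mean Tagln was 8.16, 8.42 and 7.37 CPM, and mean Cspg4 was 184, 173 and 276 CPM. The part of these markers in the Lama4 values, and in those of Col18a1 and Cdh11, which stand in the same order, was not tested.

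Lama5, the alpha chain of laminins of epithelial and mature vascular basement membranes, was low in all lines. Its levels were 7.63, 5.8, 7.14 and 6.58 CPM in KO, against 17.1, 12.1, 28.5 and 16.2 CPM in WT clone2 and 22.7, 17.2, 29.5 and 22.6 CPM in WT clone1. Every KO library lay under every wild-type library (log2 fold change -1.61 ± 0.24 SE, adjusted p = 0.00046), and the wild-type lines overlapped each other. Lama2, the alpha chain of muscle and nerve laminin, gave another order. It was at 22.7, 36.2, 42.4 and 35.3 CPM in KO, against 4.23, 6.05, 8.96 and 11 CPM in WT clone2 and 83.7, 88.1, 90.7 and 60.9 CPM in WT clone1. KO thus stood between the wild-type lines without overlapping either, 2.18 ± 0.27 log2 units above WT clone2 (adjusted p = 2.5e-05) and 1.25 below WT clone1 (-1.25 ± 0.25, adjusted p = 0.00143), and the pooled comparison did not pass (-0.37 ± 0.80, adjusted p = 0.788). In WT clone1, where Krt19 and the endothelial sum were highest, Lama1 was also highest, at 7.79 to 15 CPM, with 0 to 0.115 CPM in KO and 0.0571 to 0.339 CPM in WT clone2. Lama1 is an alpha chain of early embryonic laminin that is not among the 34 genes and was chosen after its values were seen. The part of these marker differences in the laminin values was not tested.

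**Figure D2:**
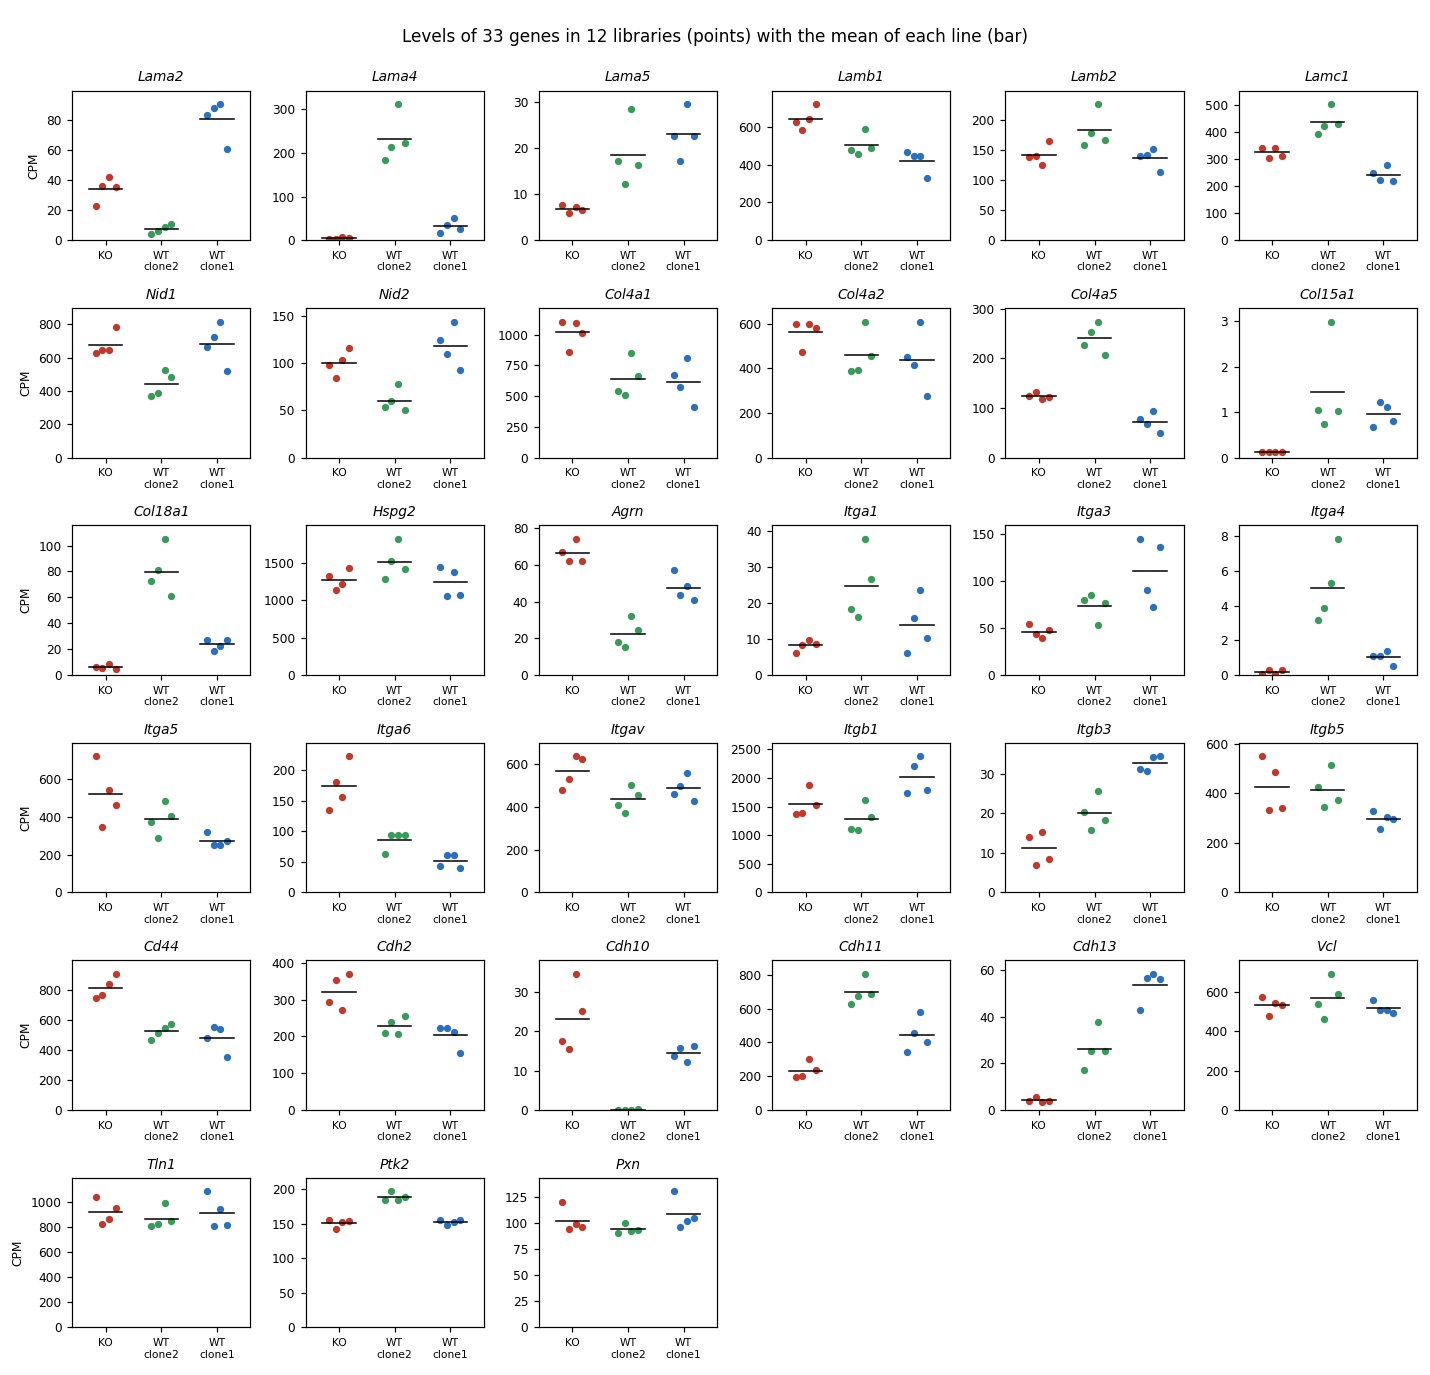
Levels in CPM (y axes, each from 0) of the 33 genes in each library (points: KO left, WT clone2 in the middle, WT clone1 right; bars: mean of 4 libraries). Lama4 and Cdh11 rise in steps over KO, WT clone1 and WT clone2 without overlap, Lama5 and Col15a1 are lowest in KO, and Cd44 and Col4a1 are highest in KO.

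Per kb of transcript, the summed alpha chain level was 4.89 ± 1.22 CPM per kb in KO, 41.2 ± 9.89 CPM per kb in WT clone2 and 16.8 ± 3.73 CPM per kb in WT clone1 (SD, n = 4 each). Lama2 made up 72.2 ± 4.92% of that sum in KO, against 1.89 ± 0.659% in WT clone2 and 50.3 ± 7.07% in WT clone1. The share of Lama4 was 14.6 ± 5.45% in KO, 93.6 ± 0.828% in WT clone2 and 30.7 ± 7.94% in WT clone1. The leading alpha chain by share was thus Lama2 in KO and in WT clone1, and Lama4 in WT clone2.

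The beta and gamma chains were abundant in all lines and differed less. Lamb1, the main beta chain, had 624, 585, 642 and 721 CPM in KO, against 476, 459, 591 and 488 CPM in WT clone2 and 468, 444, 445 and 330.1 CPM in WT clone1. It was higher in KO (log2 fold change 0.48 ± 0.12 SE, adjusted p = 0.0155), although the highest WT clone2 library, at 591 CPM, was above the lowest KO library. Against WT clone2 alone the difference was 0.35 ± 0.12 (adjusted p = 0.0338), and leaving out any of 5 single libraries ended that call (adjusted p up to 0.0836): experiment 3 or 4 of KO, or experiment 1, 2 or 4 of WT clone2. Lamb2, the beta chain of synaptic and glomerular laminin, showed -0.17 ± 0.15 in the pooled comparison (adjusted p = 0.501) with 126 to 166 CPM in KO, 159 to 227 CPM in WT clone2 and 113 to 153 CPM in WT clone1. Its call against WT clone2 (-0.36 ± 0.13, adjusted p = 0.0422) was lost in 8 of the 12 fits that left out a single library (adjusted p up to 0.135), those without experiment 1, 2 or 3 of KO, 2, 3 or 4 of WT clone2, or 1 or 2 of WT clone1. It also gave an adjusted p of 0.0515 without both experiment 1 libraries of KO and WT clone1.

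Lamc1, the gamma chain of most laminins, had 303 to 341 CPM in KO, 393 to 502 CPM in WT clone2 and 217 to 276 CPM in WT clone1, with no overlap between lines. It was lower in KO than in WT clone2 (-0.43 ± 0.10, adjusted p = 0.00438), higher than in WT clone1 (0.43 ± 0.10, adjusted p = 0.00458), and near 0 in the pooled comparison (-0.06 ± 0.23, adjusted p = 0.88). Lamb1 as a share of beta chain transcripts per kb was 80.1 to 83.2% in KO, 71.3 to 74.4% in WT clone2 and 73.8 to 76.3% in WT clone1. KO alone was thus outside the range of the other lines by this share.

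The nidogens, which bridge laminin and collagen IV, did not pass in the pooled comparison. Nid2 was at 97.9, 84.6, 103 and 116 CPM in KO, against 53.1, 59.6, 77.7 and 50.3 CPM in WT clone2 and 125, 109.9, 144 and 92.8 CPM in WT clone1. It overlapped WT clone1 and lay above every WT clone2 library, with 0.17 ± 0.27 pooled (adjusted p = 0.706) and 0.74 ± 0.16 against WT clone2 (adjusted p = 0.00237). Nid1 was likewise higher in KO than in WT clone2 (0.61 ± 0.15, adjusted p = 0.00538) but showed -0.02 ± 0.15 against WT clone1 (adjusted p = 0.952).

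Of the basement membrane collagens, Col4a1 was higher in KO, Col15a1 and Col18a1 were lower, and Col4a2 and Col4a5 did not pass against both lines pooled. Col4a1 (GRCm39 chr8:11248423-11362826) had 1107, 863, 1094 and 1016 CPM in KO, against 543, 513, 851 and 663 CPM in WT clone2 and 674, 575, 813 and 410.1 CPM in WT clone1. Every KO library was above every wild-type library, the closest pair being 863 and 851 CPM, and the wild-type lines overlapped. The log2 fold change was 0.69 ± 0.17 SE (adjusted p = 0.0131), which became an adjusted p of 0.0527 without both experiment 1 libraries of KO and WT clone1. Against WT clone2 it was 0.67 ± 0.20 (adjusted p = 0.0172), a call that was lost without experiment 1 of WT clone2 (adjusted p = 0.0535).

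Col4a2 showed the same direction without passing: 599.7, 475, 597 and 579.8 CPM in KO, against 386, 393, 608 and 457 CPM in WT clone2 and 450.1, 413, 609 and 277 CPM in WT clone1. Wild-type libraries at 608 and 609 CPM were above all of the KO libraries, and the log2 fold change was 0.33 ± 0.18 SE (adjusted p = 0.238). Per kb, the ratio of Col4a1 to Col4a2 was 1.85 ± 0.0427 in KO, 1.42 ± 0.0617 in WT clone2 and 1.45 ± 0.0783 in WT clone1 (SD, n = 4 each). The lowest KO ratio was 1.79 and the highest wild-type ratio 1.53, so the balance of the paired transcripts separated KO from both wild-type lines, which overlapped. The annotated first exons of the pair overlap on opposite strands, and the strand setting of the counting is not given in the sources used here, so reads from that overlap could be assigned to either gene or to neither.

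**Figure D3:**
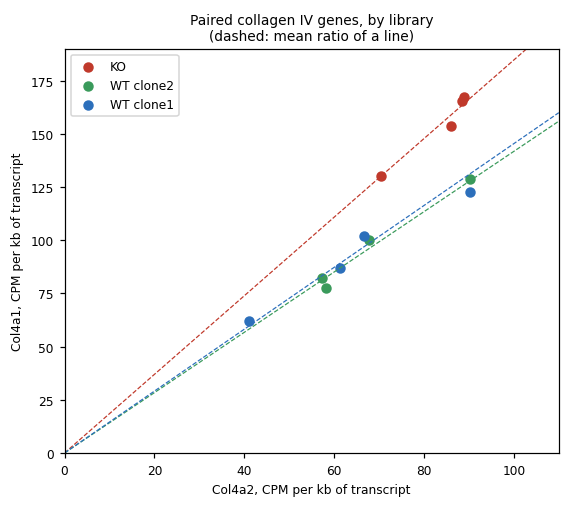
Level of Col4a1 (y axis) against Col4a2 (x axis), both in CPM per kb of transcript, in the 12 libraries (points) with a dashed line at the mean ratio of each line. The 4 KO points lie on a steeper line (ratio 1.85) than the 8 wild-type points (1.42 and 1.45).

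Col4a5, a chain of the kidney and smooth muscle collagen IV network encoded on the X chromosome, stood between the wild-type lines as Lama2 and Lamc1 did, in the order of Lamc1. It had 119 to 133 CPM in KO, 207 to 274 CPM in WT clone2 and 49.9 to 93.4 CPM in WT clone1. The KO line was lower than WT clone2 (-0.94 ± 0.15, adjusted p = 0.0003) and higher than WT clone1 (0.79 ± 0.15, adjusted p = 0.00131), and the pooled comparison gave -0.32 ± 0.44 (adjusted p = 0.655). Its share of collagen IV transcripts per kb was 7.46 ± 1.13% in KO, 18.1 ± 2.9% in WT clone2 and 6.54 ± 0.243% in WT clone1.

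Col15a1 and Col18a1 encode the multiplexins, collagens that carry glycosaminoglycan chains at the edge of the basement membrane and whose C-terminal fragment, endostatin in collagen XVIII, is known as an inhibitor of angiogenesis. Col18a1 (GRCm39 chr10:76888012-77002390) had 6.48, 5.62, 8.64 and 5.02 CPM in KO, against 72.4, 81.4, 105 and 60.9 CPM in WT clone2 and 27.4, 18.4, 22.5 and 27.1 CPM in WT clone1. The 3 lines did not overlap, and Col18a1 was lower in KO by -3.01 ± 0.53 log2 units (adjusted p = 0.00167). It was also 1.74 ± 0.19 log2 units higher in WT clone2 than in WT clone1. Col15a1 was near the limit of detection, with 8 counts in all of the KO libraries: 0.115, 0.118, 0.131 and 0.115 CPM in KO, against 1.04, 0.742, 2.99 and 1.02 CPM in WT clone2 and 0.677, 1.22, 1.12 and 0.812 CPM in WT clone1. All KO libraries were under all wild-type libraries (-3.25 ± 0.51, adjusted p = 0.00071), and the wild-type lines overlapped.

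The proteoglycans of the sheet differed from each other. Perlecan (Hspg2) was at 1129 to 1429 CPM in KO, 1276 to 1816 CPM in WT clone2 and 1051 to 1443 CPM in WT clone1, and passed in no comparison (pooled -0.11 ± 0.14, adjusted p = 0.641). Agrin (Agrn), known as the organiser of acetylcholine receptors at the nerve-muscle junction and present in many basement membranes, had 66.8, 62.1, 74.1 and 62.3 CPM in KO, against 18.1, 15.1, 32.4 and 24.4 CPM in WT clone2 and 57, 43.4, 48.6 and 40.8 CPM in WT clone1. The 3 lines did not overlap. Agrn was higher in KO than in both wild-type lines at the edge of the threshold (0.92 ± 0.30, adjusted p = 0.0497). Leaving out any of 9 of the 12 libraries ended that call (adjusted p up to 0.123), namely each KO library, experiments 1, 3 and 4 of WT clone2 and experiments 2 and 4 of WT clone1. Leaving out both experiment 1 libraries of KO and WT clone1 ended it too (adjusted p = 0.0518). Against WT clone2 it was 1.56 ± 0.20 (adjusted p = 3.1e-05), and against WT clone1 0.48 ± 0.19 (adjusted p = 0.0636).

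Among the integrins, the laminin receptor subunit Itga6 was higher in KO and the laminin receptor subunit Itga3 lower. Itga6 (GRCm39 chr2:71575960-71689757) had 136, 181, 157 and 223 CPM in KO, against 63.6, 94.7, 93.9 and 94.8 CPM in WT clone2 and 44.2, 61.8, 61.9 and 40.7 CPM in WT clone1. The lines did not overlap, and the log2 fold change against both lines was 1.33 ± 0.23 SE (adjusted p = 0.0016), with 1.01 ± 0.19 against WT clone2 and 1.74 ± 0.19 against WT clone1. Itga3 had 54, 44.2, 39 and 47.7 CPM in KO, against 80, 85.4, 53.1 and 76.6 CPM in WT clone2 and 145, 91, 72.7 and 136 CPM in WT clone1. KO was lower (-1.0 ± 0.24, adjusted p = 0.0128), with 1 WT clone2 library, at 53.1 CPM, below the highest KO library. The Itga3 difference from WT clone2 alone (-0.67 ± 0.21, adjusted p = 0.0216) was lost in 6 of the 12 fits without a single library, those without experiment 2, 3 or 4 of KO or experiment 1, 2 or 4 of WT clone2 (adjusted p up to 0.0778).

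The ratio of Itga6 to Itga3 per kb was 2.83 to 5.26 in KO, 0.895 to 1.99 in WT clone2 and 0.337 to 0.957 in WT clone1. Of the transcripts of laminin-binding alpha subunits (Itga3, Itga6 and Itga7) per kb, Itga6 made up 75.8 ± 5.27% in KO, 54.7 ± 7.54% in WT clone2 and 32.2 ± 10.5% in WT clone1 (SD, n = 4 each). No KO library overlapped a wild-type library by this share, as KO ran from 68.5 to 80.8% and the wild-type lines reached 63.7%. The beta partner of these subunits in fibroblasts, Itgb1, did not pass the main edgeR test in any KO comparison. It had 1375, 1393, 1873 and 1526 CPM in KO, against 1115, 1084, 1618 and 1311 CPM in WT clone2 and 1735, 2208, 2378 and 1784 CPM in WT clone1, and KO overlapped both. Its log2 fold change was -0.10 ± 0.21 pooled (adjusted p = 0.78), 0.27 ± 0.15 against WT clone2 (adjusted p = 0.197) and -0.39 ± 0.15 against WT clone1 (adjusted p = 0.0629). Within each experiment number, however, Itgb1 was highest in WT clone1, then KO, then WT clone2. An edgeR fit with the experiment number as a block gave adjusted p of 0.0354 against WT clone2 and 0.00523 against WT clone1.

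Of the collagen and fibronectin receptor subunits, Itga4, which pairs with beta1 and binds a spliced segment of fibronectin and VCAM-1, was at the limit of detection in KO. Its 4 KO libraries held 12 counts in all, 0.0574, 0.296, 0.0655 and 0.289 CPM, against 3.15, 3.88, 5.31 and 7.84 CPM in WT clone2 and 1.09, 1.11, 1.38 and 0.5 CPM in WT clone1. The lines did not overlap (pooled -4.04 ± 0.87, adjusted p = 0.00637), and WT clone2 was 2.28 ± 0.36 log2 units above WT clone1. Itga5, the alpha subunit of the main fibronectin receptor, was higher in KO by 0.65 ± 0.21 (adjusted p = 0.0458) with 349.6 to 721 CPM in KO, 289 to 485 CPM in WT clone2 and 251 to 318 CPM in WT clone1. That call gave an adjusted p of 0.224 without both experiment 1 libraries of KO and WT clone1 and was lost in 9 of the 12 fits without a single library (experiments 1, 3 and 4 of KO, 1 and 2 of WT clone2, and all of WT clone1; adjusted p up to 0.176). Itga1, a collagen IV receptor subunit, was lower in KO by -1.23 ± 0.40 (adjusted p = 0.0465), with 6.02 to 9.82 CPM in KO, 16.1 to 37.7 CPM in WT clone2 and 6.14 to 23.5 CPM in WT clone1. It kept its call only without experiment 1 or 4 of WT clone1 among the 12 such fits (adjusted p up to 0.13).

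The alphaV subunits bind vitronectin, fibronectin and other proteins with the RGD motif. Itgav was at 480.4 to 636 CPM in KO, 373 to 501 CPM in WT clone2 and 429.8 to 560.0 CPM in WT clone1 (pooled 0.30 ± 0.11, adjusted p = 0.0885). Its partner Itgb3 had 14.1, 6.98, 15.2 and 8.37 CPM in KO, against 20.4, 15.7, 25.7 and 18.3 CPM in WT clone2 and 31.3, 30.6, 34.2 and 34.4 CPM in WT clone1. Every KO library was under every wild-type library, with the closest pair at 15.2 and 15.7 CPM, and the log2 fold change was -1.24 ± 0.28 SE (adjusted p = 0.00775). Itgb5, the partner of alphaV in another vitronectin receptor, did not pass against both lines (0.26 ± 0.19, adjusted p = 0.375). It was higher in KO than in WT clone1 (0.52 ± 0.17, adjusted p = 0.0276), a call that was lost without experiment 1 or 3 of KO or experiment 2, 3 or 4 of WT clone1 (adjusted p up to 0.0813) and that gave an adjusted p of 0.0563 without both experiment 1 libraries of KO and WT clone1.

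CD44, the receptor for the matrix sugar hyaluronan (GRCm39 chr2:102641486-102732010), had 744, 765, 841 and 906 CPM in KO, against 467, 514, 547 and 575 CPM in WT clone2 and 479, 549, 539 and 353 CPM in WT clone1. KO was above every wild-type library and the wild-type lines overlapped. Cd44 was higher in KO by 0.69 ± 0.12 log2 units (adjusted p = 0.00118), 0.63 ± 0.13 against WT clone2 and 0.76 ± 0.13 against WT clone1. The comparison of WT clone2 against WT clone1 gave 0.13 ± 0.13 (adjusted p = 0.455).

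In the cadherins, N-cadherin was higher in KO, and cadherin-11 and T-cadherin (Cdh13) were lower. Cdh2 had 293, 355, 271 and 370.3 CPM in KO, against 209, 239, 207 and 256 CPM in WT clone2 and 223, 223, 212 and 154 CPM in WT clone1. All KO libraries lay above all wild-type libraries, the closest pair being 271 and 256 CPM (log2 fold change 0.58 ± 0.12 SE, adjusted p = 0.00594). Cdh11 (GRCm39 chr8:103358726-103512687), the cadherin of osteoblasts and mesenchyme, had 198, 199, 299 and 238 CPM in KO, against 625, 675, 806 and 689 CPM in WT clone2 and 345, 457, 578 and 402 CPM in WT clone1. The 3 lines stood in separate ranges. Cdh11 was lower in KO by -1.30 ± 0.23 pooled (adjusted p = 0.00164), -1.58 ± 0.17 against WT clone2 and -0.94 ± 0.17 against WT clone1.

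Cdh13, an unusual cadherin held by a lipid anchor that is also known as a receptor of adiponectin (GRCm39 chr8:119010328-120051660), gave the smallest adjusted p among the members in the pooled comparison. It had 3.84, 5.38, 3.41 and 3.64 CPM in KO, against 17.1, 25.2, 37.9 and 25.3 CPM in WT clone2 and 42.9, 56.6, 58.5 and 56.1 CPM in WT clone1. There was no overlap between any lines, and the log2 fold change was -3.29 ± 0.37 SE (adjusted p = 6.5e-05). Cdh10, an atypical cadherin of the nervous system, was at 17.6, 15.4, 34.6 and 25.1 CPM in KO, against 0, 0.0571, 0 and 0.113 CPM in WT clone2 and 13.7, 15.8, 12.3 and 16.2 CPM in WT clone1. WT clone2 thus held 3 counts in all, against 1531 in KO and 1038 in WT clone1, and the ratio of KO to WT clone2 was 592 (95% exact interval 202 to 2873, counting error only). KO and WT clone1 overlapped, and their difference (0.68 ± 0.23, adjusted p = 0.0379) was lost in 6 of the 12 fits without a single library (experiments 3 and 4 of KO and all of WT clone1; adjusted p up to 0.148).

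Over all of the 11 cadherins in the table, the summed level per kb was 144 ± 7.91 CPM per kb in KO, 207 ± 16.4 CPM per kb in WT clone2 and 171 ± 15.2 CPM per kb in WT clone1 (SD, n = 4 each). Cdh2 took 45.4 ± 5.77% of it in KO, 22.5 ± 2.86% in WT clone2 and 24.1 ± 3.68% in WT clone1. The share of Cdh11 was 28.6 ± 5.34% in KO, 59.8 ± 1.92% in WT clone2 and 45.7 ± 6.47% in WT clone1. The order of the pair was therefore reversed: the ratio of Cdh2 to Cdh11 per kb was 1.04 to 2.05 in KO, 0.295 to 0.426 in WT clone2 and 0.422 to 0.74 in WT clone1. P-cadherin (Cdh3), chosen after its values were seen, came next at 19.1 ± 3.13% in KO, 10.8 ± 1.7% in WT clone2 and 16.7 ± 5.22% in WT clone1. In bulk RNA, fewer cells that express a gene and less of its RNA per cell cannot be told apart, and this holds for each of these differences.

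**Figure D4:**
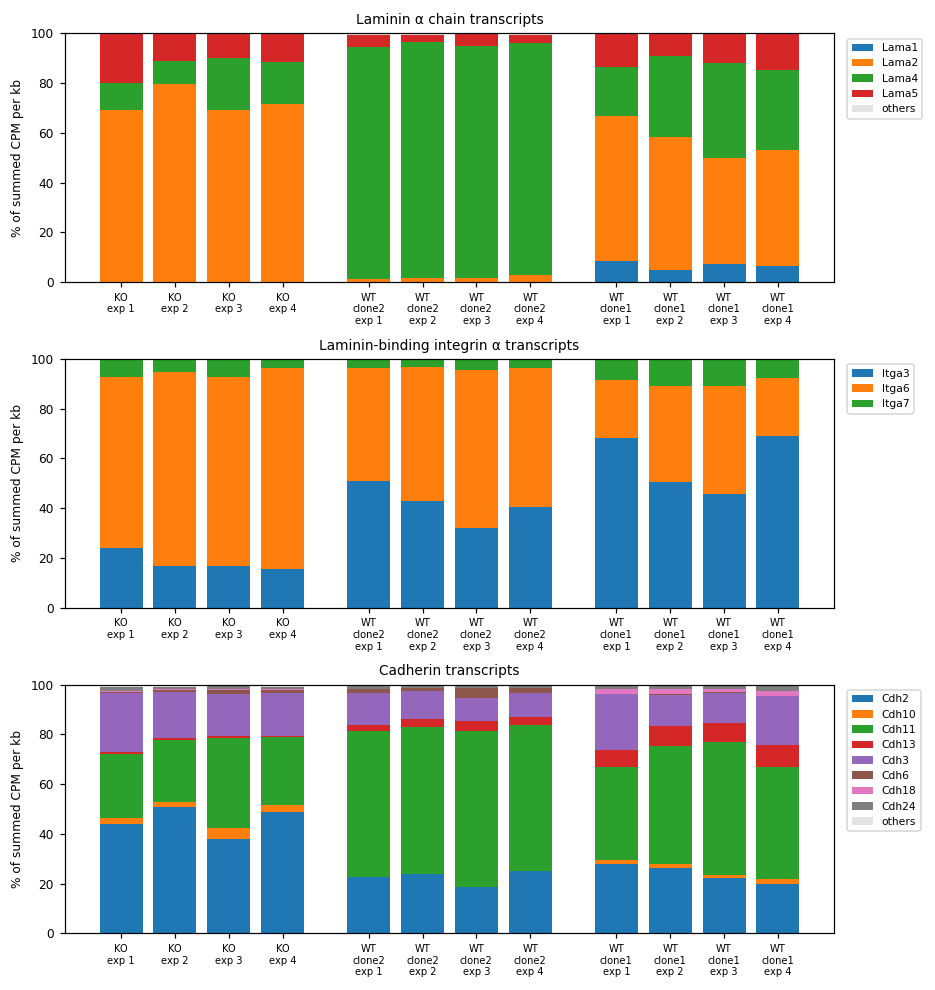
Stacked bars for each library (x axis, KO left, then WT clone2 and WT clone1) give the percent of the summed CPM per kb of a family taken by each gene, for laminin alpha chains, laminin-binding integrin alpha subunits and cadherins; genes under 2% in every library are summed as others. In KO libraries Lama2, Itga6 and Cdh2 take the largest shares of their families, and in WT clone2 libraries Lama4 and Cdh11 do. Itga6 also has the largest mean share in WT clone2 (54.7%, against 41.5% for Itga3), and Lama2 and Cdh11 lead in WT clone1 libraries.

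The focal adhesion genes behind the integrins showed no pooled call among the 4 with values. Ptk2 (focal adhesion kinase) had 155, 143, 152 and 154 CPM in KO, against 184, 197, 185 and 189 CPM in WT clone2 and 155, 148, 152 and 156 CPM in WT clone1. KO and WT clone1 overlapped and WT clone2 lay above both, with -0.32 ± 0.06 in KO against WT clone2 (adjusted p = 0.00142) and -0.18 ± 0.09 pooled (adjusted p = 0.217). Paxillin (Pxn), a docking protein, was at 120.1, 94.3, 99.3 and 95.8 CPM in KO, 90.7, 100, 92.1 and 93 CPM in WT clone2 and 130.5, 96.1, 102 and 105 CPM in WT clone1, and the ranges overlapped. The pooled log2 fold change was 0.02 ± 0.11 for Pxn, -0.03 ± 0.10 for vinculin (Vcl) and 0.05 ± 0.10 for talin (Tln1), with adjusted p of 0.936, 0.864 and 0.798. A p above the threshold does not show that these genes were equal.

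The genes whose log2 CPM followed a member most closely over the 12 libraries are given as a description, since the libraries share lines. For Cdh11 these were Phactr1, a regulator of actin and phosphatases (Pearson r = 0.989), Lama4 (r = 0.988) and Dnm3, a dynamin (r = 0.985), of 14391 genes compared. Lama4 is itself a member, and both genes stand lowest in KO and highest in WT clone2. For Col4a1 they were Adamts1, a matrix protease (r = 0.960), Septin11, a cytoskeletal protein (r = 0.958), and Gpr176, a receptor (r = 0.956). Col4a2 ranked 7 on the same scale (r = 0.927).

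Other genes of the same pathways were taken from 8 lists of 160 genes, of which 132 were tested. In KO against both wild-type lines 16 were higher and 26 lower, 31.8% in all beside 18.8% of all genes, with a median log2 fold change of -0.11. The further laminin and basement membrane genes had 2 higher and 7 lower of 19 (47.4%), with a median of -1.18, beside -0.03 over all genes. Netrin-1 (Ntn1), a laminin-related guidance protein, was at 2.48 to 4.3 CPM in KO, 8.34 to 9.84 CPM in WT clone2 and 62.5 to 101 CPM in WT clone1 (-3.61 ± 0.87, adjusted p = 0.0117). Hemicentin-1 (Hmcn1), a large matrix protein that links basement membranes, was at 1.5 to 3.43 CPM in KO, 8.11 to 9.07 CPM in WT clone2 and 21.1 to 51.7 CPM in WT clone1 (-3.36 ± 0.65, adjusted p = 0.00316). Tinagl1, a matrix protein that binds integrins, was at 12.8 to 18.4 CPM in KO, 44.3 to 82.6 CPM in WT clone2 and 54 to 87.5 CPM in WT clone1 (-2.13 ± 0.21, adjusted p = 2.2e-05). In these genes KO lay under every wild-type library.

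The enzymes that assemble and cleave collagen IV and laminin had 4 higher and 4 lower of 18, 44.4% beside 18.8% of all genes, with a median of -0.03. Mmp2, a gelatinase that cleaves collagen IV, was lower in KO (-1.15 ± 0.24, adjusted p = 0.00548), with means of 106 ± 11.5 CPM in KO, 173 ± 46.6 CPM in WT clone2 and 296 ± 24.6 CPM in WT clone1 (SD, n = 4 each). Mmp14, the membrane-bound protease that activates the Mmp2 protein, was higher (0.80 ± 0.14, adjusted p = 0.00178), with 491 ± 44.1 CPM in KO, 321 ± 62.2 CPM in WT clone2 and 241 ± 11 CPM in WT clone1. The matrix-bound inhibitor Timp3 was lower (-0.86 ± 0.27, adjusted p = 0.0414), a call lost in 8 of the 12 fits without a single library (each KO library, experiments 2, 3 and 4 of WT clone2 and 2 of WT clone1; adjusted p up to 0.113). Adamts1, named above for its likeness to Col4a1, is on this list.

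Further integrin subunits had 1 higher and 4 lower of 13 (38.5%). Among them Itgbl1, an integrin beta-like secreted protein, was lower in KO (-3.18 ± 0.41, adjusted p = 0.00017; 0.635 to 2.31 CPM in KO, 11.5 to 17.6 CPM in WT clone2 and 6.09 to 16.5 CPM in WT clone1), and so was Itga9, a receptor subunit for tenascin-C (-1.49 ± 0.30, adjusted p = 0.00393). Of 15 non-integrin matrix receptors none was higher and 4 were lower (26.7%), among them the heparan sulfate proteoglycans Sdc4 (-0.79 ± 0.14, adjusted p = 0.00153), Gpc1 (-0.68 ± 0.15, adjusted p = 0.00621) and Sdc1 (-0.41 ± 0.11, adjusted p = 0.0199, and up to 0.08 without experiment 2, 3 or 4 of KO). Integrin ligands outside the basement membrane had 1 higher, thrombospondin-2 (Thbs2, 1.36 ± 0.36, adjusted p = 0.0205, and up to 0.0692 without experiment 3 or 4 of KO), and 1 lower, Tgfbi (-1.50 ± 0.20, adjusted p = 0.00026), of 16. Of all genes, 18.8% passed. The lists of subunits, receptors and ligands held only 13, 15 and 16 genes, so their shares are not read as higher or lower than that. Whether they differ from the share of all genes was not tested.

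The further cadherins had 1 higher and 1 lower of 5 (40%), and none met the rule for naming. Of 12 catenins and cadherin partners, 1 was higher and 3 lower (33.3%): the catenin-like Ctnnal1 (-0.85 ± 0.14, adjusted p = 0.00124) and delta-2 catenin (Ctnnd2, -0.79 ± 0.16, adjusted p = 0.00396) were lower, and the adhesion molecule Nectin2 was higher (0.33 ± 0.10, adjusted p = 0.0413, and up to 0.13 in the 10 of 12 fits without a single library that ended the call, all but those without experiment 3 of WT clone2 or 1 of WT clone1). The further focal adhesion genes, 34 tested, had 6 higher and 2 lower (23.5%), near the 18.8% of all genes. Parvb (beta-parvin, a partner of integrin-linked kinase) differed most among the named ones, with 25.1 to 38.4 CPM in KO, 4.98 to 8.51 CPM in WT clone2 and 3.62 to 6.78 CPM in WT clone1 (2.54 ± 0.18, adjusted p = 1.6e-06). Tns1 (tensin-1, which ties integrins to actin) was higher (0.71 ± 0.13, adjusted p = 0.00221) and Kank1, which binds talin at the rim of adhesions, was lower (-0.87 ± 0.16, adjusted p = 0.00221).

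**Figure D5:**
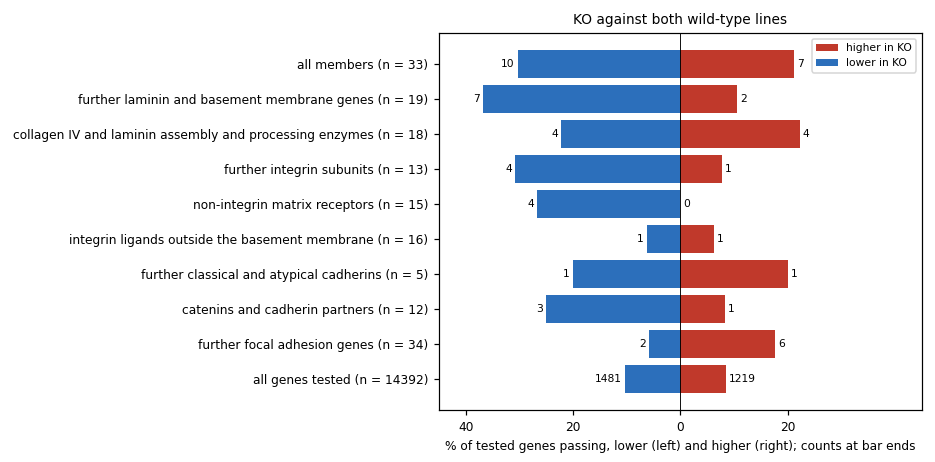
Percent of tested genes that passed in KO against both wild-type lines, higher (right) and lower (left), for the 33 members, 8 further lists and all 14392 genes, with counts at the bar ends. The members (7 higher, 10 lower) and the further laminin and basement membrane genes (2 higher, 7 lower) reach further to the left than all genes (10.3% lower). So do the other lists, except the integrin ligands outside the basement membrane and the further focal adhesion genes. Some lists are small, down to 5 tested cadherins with 1 lower, and whether their shares differ from that of all genes was not tested.

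Some members lie on chromosomes whose genes as a whole were shifted between lines. On chromosome 2, which holds Lama5, Itga4, Itga6, Itgav and Cd44, the median log2 fold change was 0.19 in KO against both wild-type lines, with 253 genes higher and 76 lower of 1099. It was 0.23 against WT clone2 and 0.16 against WT clone1. On chromosome 8, which holds Col4a1, Col4a2, Itgb1, Cdh11 and Cdh13, the shift set WT clone1 apart from the other lines. Its median was -0.28 in KO against WT clone1, with 60 higher and 336 lower of 787, and -0.29 in WT clone2 against WT clone1, but 0.02 in KO against WT clone2, with 159 higher and 146 lower. Chromosome 14, with Nid2 and Vcl, likewise had a median of 0.42 in KO against WT clone1 and 0.06 against WT clone2. On chromosome 18, which holds Cdh2, the median was -0.15 against both lines pooled, with 22 higher and 67 lower of 405. Of the passing members on chromosomes 2, 8, 14 and 18, Lama5, Itga4, Col4a1 and Cdh2 went against the median of their chromosome in KO against both wild-type lines. Chromosome 11, with Itga3 and Itgb3, had a median of -0.20 in KO against WT clone1, 0.10 against WT clone2 and -0.07 against both lines pooled. On chromosome 12, with Lamb1, these medians were 0.24, -0.02 and 0.08. Itga3, Itgb3 and Lamb1 passed in the direction of the pooled median of their chromosome. Members on the remaining chromosomes are not counted here. The part of these shifts in the members' values was not tested.

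In the authors' deposited table, whose log2 fold change has by its signs the p27-null line on top, 18 members had an adjusted p under 0.05, 8 higher and 10 lower, where 30.7% of the genes listed did. The 17 members that passed here were among them with the same sign in the authors' deposited table. The further one was Itgav, with a log2 fold change of 0.30 and an adjusted p of 0.0099 in the authors' deposited table.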

How the data were processed

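Per the labels' protocols, paired-end reads of total RNA were sequenced, and, per the submitters' processing notes, they were checked with FastQC, aligned to GRCm39 with STAR 2.5.4a and counted per gene. No source used here gives the strand setting or the annotation release. The deposited values used are raw counts per gene and library, and, from the authors' own comparison, a log2 fold change and an adjusted p-value, per the file headers. The deposited table has 15207 entries, of which 51 name no gene (2.04 to 5.25% of a library's counts) and were left out.

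The deposited counts went into edgeR 4.0.16 under R 4.3.3 (TMM, filterByExpr, quasi-likelihood F test, two-sided, Benjamini-Hochberg over 14392 genes, threshold 0.05), with 1 mean per genotype for KO (n = 4) against both wild-type lines (n = 8) and 1 mean per line for the other comparisons. The standard error is the log2 fold change divided by the square root of F. Likeness used log2 CPM with a prior count of 2. Levels per kb use the canonical transcript of each gene in GENCODE vM39, because the gene lengths in the deposited table were more than 5 times shorter for 3 members. No 2 libraries of a line agreed within sampling noise (their chi-square over its degrees of freedom was 9.63 to 61.5). Alternatives were run with limma 3.58.1 and DESeq2 1.42.0, and scripts were tested on simulated data. Tables and figures used Python 3.11.15 with pandas 2.3.3, numpy 2.4.6, scipy 1.17.1 and matplotlib 3.10.9.

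The members and the gene lists were chosen with earlier results of these data known. Every member is named with its log2 fold change; values in all libraries are given for members that passed against both lines pooled and each line in the same direction, and otherwise for the 2 members of a class (1 in classes of 1 or 2) that differed most between lines. From each further list up to 3 genes of at least 5 CPM on average that passed in this way are named.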

Additional observations from a re-analysis of the deposited data

Results flagged for a closer look

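In 6 of 99 groups of 4 libraries, 1 library stood far from the other 3 by Dixon's ratio (the gap to the nearest library over the range of the group, beyond 0.829); chance gives about 1 in 20 such groups. Nid1 in KO had its highest library in experiment 4, at 781 CPM (ratio 0.899), and Col4a2 in KO its lowest in experiment 2, at 475 CPM (ratio 0.84). In WT clone2, Col15a1 was highest in experiment 3 at 2.99 CPM (ratio 0.869) and Itga6 lowest in experiment 1 at 63.6 CPM (ratio 0.971). In WT clone1, Cdh2 was lowest in experiment 4 at 154 CPM (ratio 0.841) and Cdh13 lowest in experiment 1 at 42.9 CPM (ratio 0.841). The calls of Col15a1, Itga6, Cdh2 and Cdh13 against both wild-type lines held in each of the 12 fits that left out a single library.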

How the results depend on the processing

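Of the 132 log2 fold changes of members, DESeq2 size factors changed no call, fitting without a filter on low counts ended 1, and the DESeq2 test added 4. For KO against both wild-type lines, 2700 genes and 17 members passed in the main fit. When the KO mean was set against the average of both wild-type line means in the fit with 1 mean per line, 4871 genes and 20 members passed. With the line as a random block, through 1 correlation for all genes, 230 genes and 1 member passed. In those fits Lama2 was 0.47 and 0.51 (against -0.37) and Lamc1 0.00 and 0.01 (against -0.06), since the wild-type lines then count equally on the log scale. Without both experiment 1 libraries of KO and WT clone1, 14 members passed against both wild-type lines, and 3 values near 0 changed sign: Pxn against both lines (-0.03), Itgb5 against WT clone2 (-0.12) and Tln1 in WT clone2 against WT clone1 (0.03).

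Leaving out each library in turn gave 1830 to 2999 genes and 14 to 16 members for KO against both wild-type lines, 4653 to 5749 and 21 to 25 against WT clone2, 4392 to 5518 and 18 to 22 against WT clone1, and 5342 to 6770 and 16 to 20 for WT clone2 against WT clone1. Log2 fold changes that changed sign in these fits ran, against both lines, from -0.13 to 0.04 for Lamc1, -0.07 to 0.02 for Vcl, -0.01 to 0.11 for Tln1 and -0.07 to 0.09 for Pxn. Against WT clone2 they ran from -0.10 to 0.16 for Itgb5 and -0.17 to 0.00 for Vcl. Against WT clone1 they ran from -0.03 to 0.12 for Lamb2, -0.13 to 0.08 for Nid1, -0.03 to 0.14 for Hspg2, -0.05 to 0.12 for Tln1, -0.03 to 0.01 for Ptk2 and -0.17 to 0.03 for Pxn. In WT clone2 against WT clone1 they ran from -0.11 to 0.22 for Col4a1, -0.09 to 0.28 for Col4a2, -0.03 to 0.78 for Col15a1 and -0.14 to 0.02 for Tln1. The cause was not tested.

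The experiment numbers were not taken to pair the libraries, because the labels do not say that a number marks a shared batch or day. Same-numbered libraries of different lines did deviate together, with correlations of 0.0421 to 0.75, above 0.1 in 10 of 12 pairs. Of the 12 libraries, 9 correlated best with their own number. The main fits do not remove what same-numbered libraries share. With the replicate block, 2493 genes and 15 members passed against both wild-type lines, 6703 and 27 against WT clone2, 6329 and 23 against WT clone1, and 7259 and 22 for WT clone2 against WT clone1. In that fit Itgb1 passed against each wild-type line in opposite directions (adjusted p = 0.0354, higher than in WT clone2, and 0.00523, lower than in WT clone1), and Agrn (0.089) and Itga5 (0.0518) did not pass against both lines pooled. Counts limit Col15a1 and Itga4 in KO (8 and 12 counts) and Cdh10 in WT clone2 (3 counts).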
